A study of Mus musculus with 2 samples.

Results

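The 35 genes described here are homeobox factors and related regulators of neuronal identity, taken by gene symbol from the 31040 genes of the count matrix, in which each has 1 row. They are Dlx1, Dlx2, Dlx5 and Dlx6; the LIM homeobox genes Lhx6, Lhx8 and Isl1; Meis1, Meis2, Meis3, Pbx2 and Pbx3; Cux1, Cux2 and Satb1; the POU genes Pou2f1, Pou3f1, Pou3f2, Pou3f3 and Pou6f1; the zinc finger homeobox genes Zfhx2, Zfhx3, Zfhx4, Zeb1 and Zeb2; Otx1, Prox1, Emx1 and Emx2; Tshz1, Tshz2 and Tshz3; and Nkx2-1, Nkx2-2 and Nkx6-2. All 35 reached 50 unique molecular identifiers (UMIs, counts of captured RNA molecules), the minimum for a call below.

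The nuclei came from the prefrontal cortex of male wild-type C57BL/6 mice aged 2 months, which received methamphetamine (METH) at 5 mg/kg or saline (Control) by intraperitoneal injection for 14 days. Tissue of 3 mice went into each of the groups METH and Control, and each group was sequenced as 1 library of single nuclei. A digit at the end of each barcode separates library 1 from library 2, but no label says which of them is METH. METH was therefore not compared with Control, and each value is given for both libraries together and for each library alone.

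Homeobox proteins bind DNA through a homeodomain, a helical fold that reads short AT-rich motifs, and combinations of them fix the type that a dividing progenitor will become. In the embryonic forebrain, Dlx genes act in the ganglionic eminences, which produce GABA-releasing neurons. Lhx6 and Nkx2-1 mark the medial eminence, Prox1 marks interneurons of the caudal eminence, and Emx1, Emx2, Otx1 and Cux2 belong to the cortical wall that gives rise to excitatory neurons. Several of these factors stay on in adult neurons, and others, such as Nkx2-2 and Nkx6-2, work in the oligodendrocyte lineage.

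After removal of barcodes with under 500 genes and of 1549 predicted doublets, 18002 nuclei remained, 8003 in library 1 and 9999 in library 2, with a median of 2978 UMIs each. Of the barcode sequences, 154 occurred in both libraries. Nuclei were clustered without the 35 genes and named from markers that include none of them. This gave 7691 excitatory neurons, 2824 inhibitory neurons, 1286 striatal projection neurons, 334 neuroblasts and dividing cells, 3061 oligodendrocytes, 880 microglia, 369 oligodendrocyte precursors, 307 astrocytes and 115 differentiating oligodendrocytes. Classes under 100 nuclei were 53 cholinergic neurons, 70 fibroblasts and 58 perivascular macrophages, and 954 nuclei stayed unnamed. Striatal projection and cholinergic neurons are cells of the striatum and basal forebrain, so nuclei with markers of these types were present in tissue labelled prefrontal cortex. Library 2 gave 938 of the striatal projection neurons and 257 of the astrocytes, against 348 and 50 in library 1.

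Levels are the UMIs of a gene summed over a class and divided by all UMIs of that class, on the usual counts-per-total scale (CPM), with an exact 95% Poisson interval that covers counting error alone. A gene was called highest in a class where its level was at least 2-fold that of the next class in the whole and also, with the same highest class, in each library. This is a rule of size and not a test: the matrix is 1 pooled sample, so no p-value is given. The level that free RNA could give was estimated for each gene and class, and a level whose interval lay above it is said to be above free RNA. The estimate rests on the class with the lowest upper bound relative to its expected free RNA. A class that sets the estimate cannot lie above it. A level not above free RNA is therefore no separate evidence of absence.

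By this rule 10 of the 35 genes were highest in 1 of the 9 classes, beside 10.7% of all 15865 genes with at least 50 UMIs, a larger share than in that background. They were Dlx1, Dlx2, Lhx8 and Nkx2-1 in neuroblasts and dividing cells, Lhx6 and Satb1 in inhibitory neurons, Prox1 and Nkx6-2 in oligodendrocytes, Emx2 in astrocytes and Zfhx3 in microglia. The members were chosen with earlier results of these data known, so their larger share is a description and no independent finding. Among 14 neuronal subclasses, 6 of the 31 members with enough UMIs were called, beside 2.57% of all genes: Dlx1 and Dlx2 in VIP neurons, Isl1 and Tshz1 in direct pathway neurons, Zfhx3 in indirect pathway neurons and Tshz2 in near-projecting neurons. Without 2 small striatal clusters, described with the pathways, 4 were called, a count given without its background share. The median fold of the highest class over the next was 1.77 for the members and 1.27 for all genes. Over subclasses the medians were 1.3 and 1.13. Between the libraries, 28 of the 35 members had the same highest class.

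**Figure D1:**
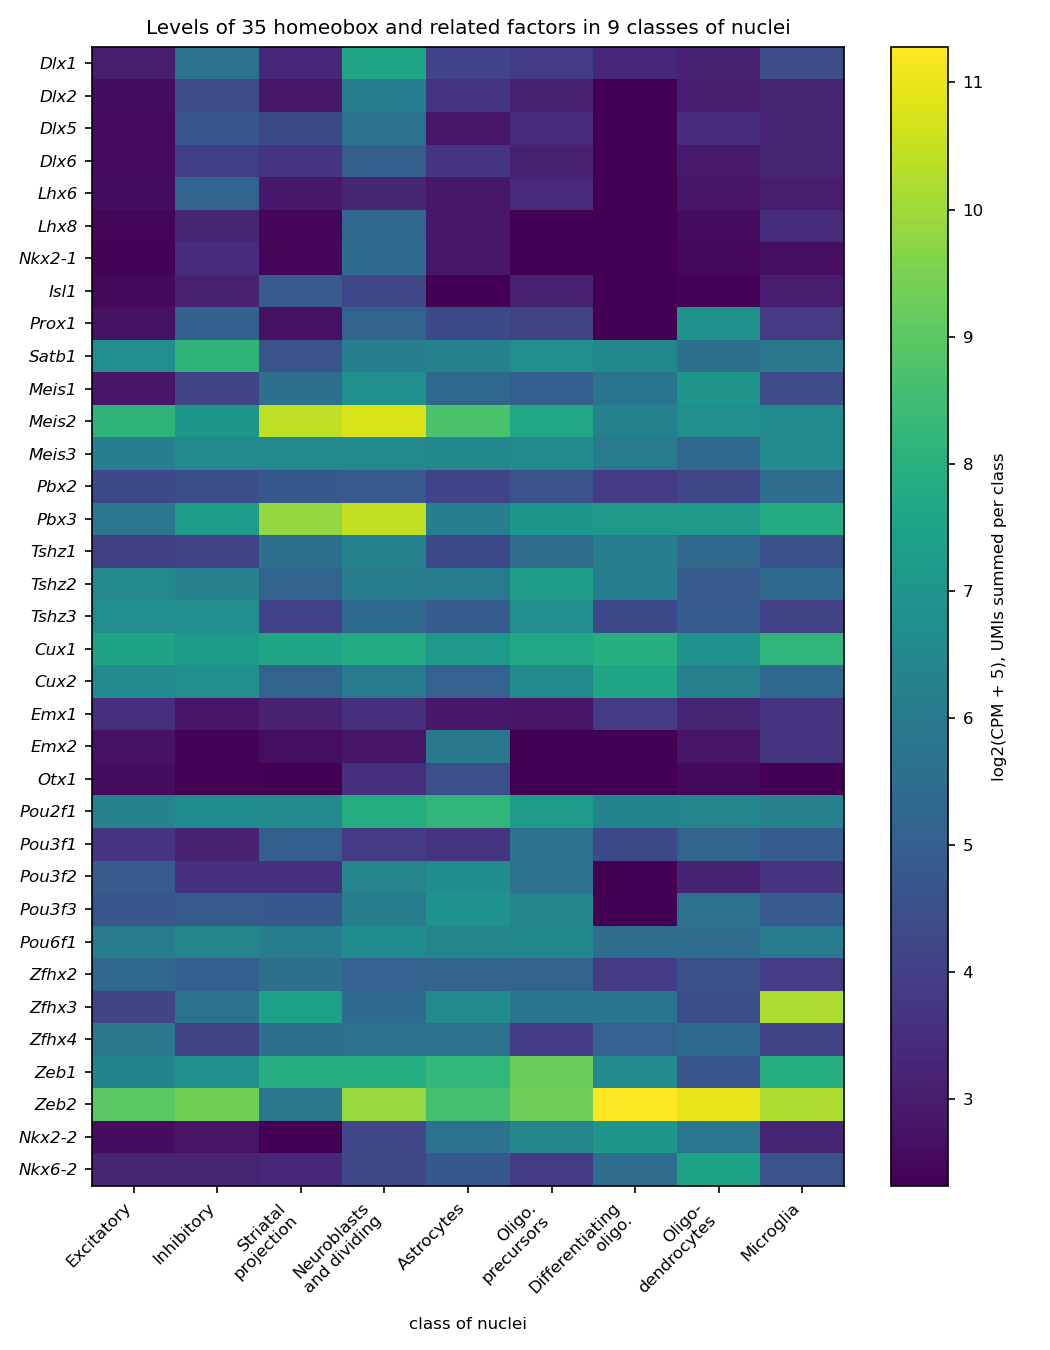
Heat map of the 35 members (rows, grouped by family) in 9 classes of nuclei (columns), with colour showing log2(CPM + 5) from UMIs of both libraries summed per class. Dlx1, Dlx2, Dlx5 and Dlx6 are brightest in neuroblasts and inhibitory neurons, Meis2 and Pbx3 in striatal projection neurons and neuroblasts, and Zeb2 is dark in striatal projection neurons while bright in the oligodendrocyte lineage.

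Of the 9 classes, all 4 Dlx genes were highest in neuroblasts and dividing cells and next highest in inhibitory neurons, whereas in striatal projection neurons the Dlx1 and Dlx2 pair differed from the Dlx5 and Dlx6 pair. The pairs are neighbours in the genome. Dlx1 (chromosome 2, 71528113 to 71533981, plus strand, GRCm38) and Dlx2 (71543408 to 71546754, minus strand) lie 9426 bases apart, and Dlx6 (chromosome 6, 6863334 to 6868568, plus strand) and Dlx5 (6877805 to 6882085, minus strand) lie 9236 bases apart. The antisense genes Dlx1as and Dlx6os1 overlap Dlx1 and Dlx6, and since no source here states that counting used the strand, reads of such partners cannot be told apart.

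Dlx1, a repressor of alternative fates in interneuron progenitors, stood at 187 CPM (148 to 232) in neuroblasts and dividing cells, with 260 in library 1 and 155 in library 2. In inhibitory neurons it stood at 47.5 CPM (43.0 to 52.2), with 61.6 and 36.1 in the 2 libraries. It stayed between 3.13 CPM in excitatory neurons and 16.7 in microglia in the other 7 classes, where no interval lay above free RNA. The neuroblast level was 3.94 times that of inhibitory neurons (3.07 to 5.01), and library values of the 2 classes did not overlap. That level is an average over a class whose portions differ in Dlx1, as described below with the neuroblast calls. Dlx2, its neighbour, had 66.9 CPM (44.8 to 96.1) in neuroblasts, 15.7 (13.2 to 18.6) in inhibitory neurons and at most 7.58 elsewhere. Dlx2 was at 0 in differentiating oligodendrocytes, where 0 UMIs allow up to 18.8 CPM, and its neuroblast level was 4.25 times the next (2.75 to 6.37).

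Dlx5 and Dlx6 had the same order of classes at the top but kept a level in striatal projection neurons. Dlx5 was at 46.1 CPM (28.2 to 71.3) in neuroblasts, 22.0 (19.1 to 25.4) in inhibitory neurons and 14.9 (11.3 to 19.4) in striatal projection neurons. Dlx6 was at 27.7 (14.3 to 48.4), 10.9 (8.85 to 13.3) and 7.74 (5.18 to 11.1) in the same 3 classes. Neither was called highest in neuroblasts, because the fold over inhibitory neurons was 1.86 for Dlx5 in library 2 and 1.39 for Dlx6 in library 1. In striatal projection neurons both were above free RNA and Dlx1, at 5.34 CPM, and Dlx2, at 2.40 CPM, were not.

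The balance between the pairs therefore varied with the type of neuron. UMIs of Dlx1 with Dlx2 were 6.83 times those of Dlx5 with Dlx6 in VIP neurons (4.15 to 11.9; 5.77 and 9.60 in the 2 libraries). The ratio was 2.48 in LAMP5 neurons (1.47 to 4.33), 1.60 in somatostatin neurons (1.25 to 2.05) and 1.35 in parvalbumin neurons (1.01 to 1.81). It turned over in striatal cells, at 0.293 in direct pathway neurons (0.160 to 0.510) and 0.409 in indirect pathway neurons (0.166 to 0.924). Neuroblasts and dividing cells stood at 3.44 (2.30 to 5.27). Because both pairs were counted in the same nuclei, depth cancels in each ratio. The intervals of VIP neurons and of both striatal subclasses lay apart from those of parvalbumin and somatostatin neurons, and in each library VIP neurons had the highest ratio of these 6 subclasses and the striatal subclasses had the lowest 2.

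Within interneurons, Dlx1 reached 154 CPM in VIP neurons (125 to 188; 202 in library 1 and 107 in library 2). It stood at 55.4 in LAMP5 (39.8 to 75.2), 49.7 in somatostatin (41.6 to 58.9) and 28.0 in parvalbumin neurons (22.1 to 35), and between 1.83 and 6.06 in the other 10 subclasses. The fold of VIP over LAMP5 neurons was 2.77 (1.91 to 4.10). Dlx2 followed with 41.2 CPM in VIP (26.9 to 60.4), 16.1 in somatostatin, 14.9 in LAMP5 and 12.7 in parvalbumin neurons, and at most 2.49 elsewhere. Dlx5 and Dlx6 showed no such step: their highest subclasses exceeded the next by 1.3-fold (0.905 to 1.87) and 1.12-fold (0.496 to 2.28), intervals that include equal levels.

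**Figure D2:**
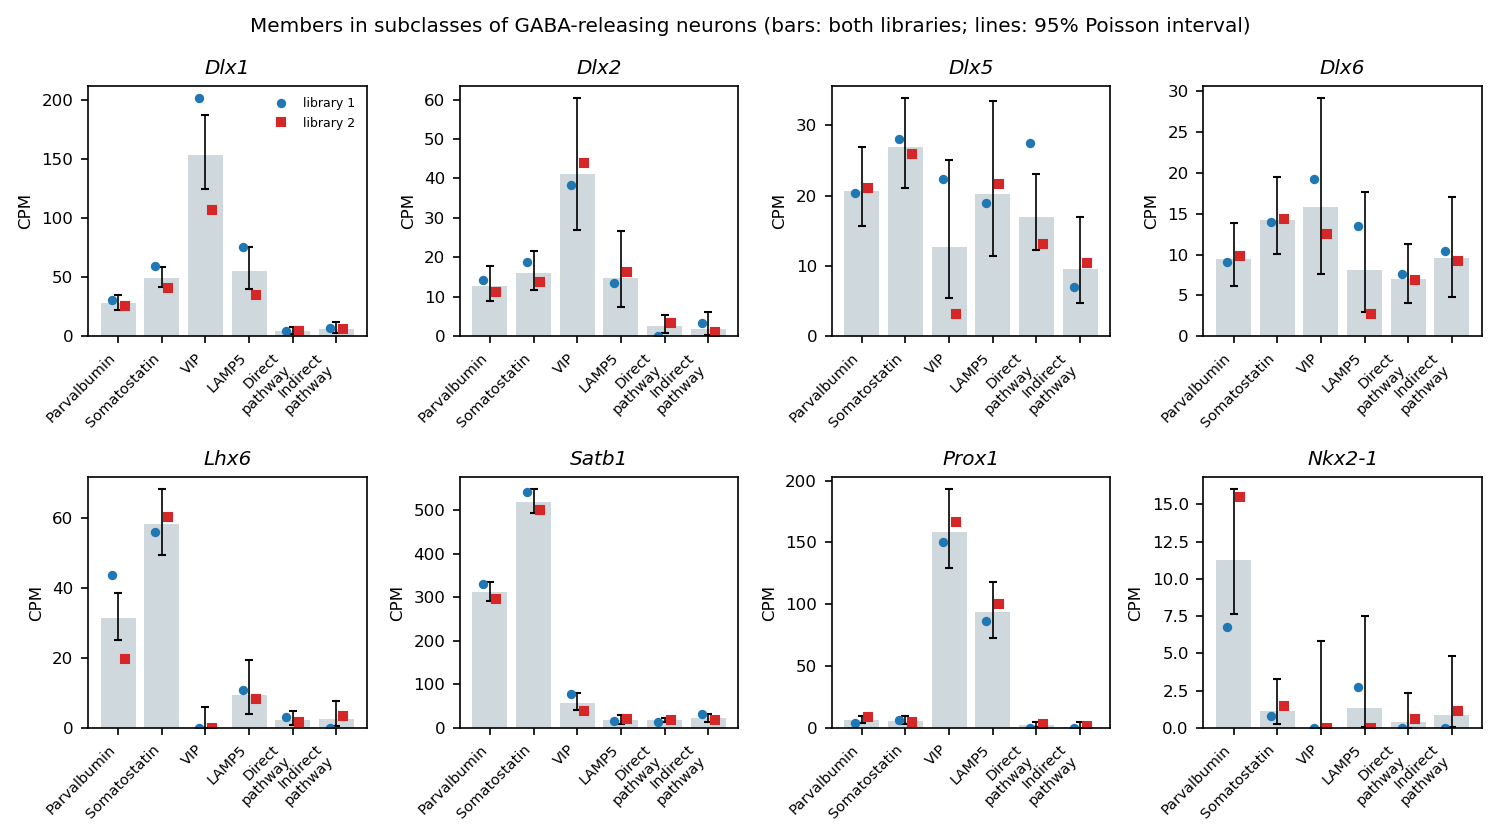
Level in CPM (y axis, linear from 0) of 8 members in 4 interneuron and 2 striatal subclasses; grey bars are both libraries together, black lines the 95% Poisson interval, blue circles library 1 and red squares library 2. Dlx1, Dlx2 and Prox1 peak in VIP neurons, Lhx6 and Satb1 in somatostatin neurons and Nkx2-1 in parvalbumin neurons, where Lhx6 differs between the libraries, at 43.6 and 19.7 CPM.

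Lhx6, which directs neurons of the medial ganglionic eminence toward parvalbumin and somatostatin types, was called in inhibitory neurons at 31.6 CPM (28.0 to 35.5; 37.4 and 27.0 in the 2 libraries). The next class, oligodendrocyte precursors, had 5.81 CPM on 3 UMIs, a fold of 5.43 (1.84 to 26.5). It was between 1.15 and 4.61 CPM in excitatory neurons, striatal projection neurons, neuroblasts, astrocytes, oligodendrocytes and microglia, and at 0 in differentiating oligodendrocytes, and none of these was above free RNA. By subclass it reached 58.3 CPM in somatostatin neurons (49.5 to 68.2), 31.3 in parvalbumin neurons (25 to 38.6) and 9.47 in LAMP5 neurons (3.81 to 19.5). In VIP neurons no Lhx6 UMI was counted, which allows up to 5.85 CPM. Somatostatin exceeded parvalbumin neurons by 1.86-fold (1.42 to 2.46), though by 1.29-fold in library 1 and 3.06-fold in library 2. By cluster, 120 inhibitory nuclei led by Nos1, Npy and Sst had 117 CPM (84.4 to 157; 129 and 109). A cluster of 724 nuclei led by Grin3a and Sst had 47.3 CPM (45.1 and 49.6 in the libraries). A cluster of 864 nuclei led by Erbb4 and Btbd11 had 33.7 CPM (46.7 and 21.7). In library 1 the Grin3a-led cluster was thus not the higher of these last clusters.

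Satb1, a chromatin-organising homeobox factor that acts after Lhx6 in the same neurons, was called in inhibitory neurons at 276 CPM (265 to 287; 307 and 251). Oligodendrocyte precursors came next at 103 CPM and excitatory neurons at 99.4. Differentiating oligodendrocytes were at 86.5, astrocytes at 73.3, neuroblasts at 66.9, microglia at 54.6, oligodendrocytes at 43.9 and striatal projection neurons at 19.2. As for Lhx6, somatostatin neurons came before parvalbumin neurons, with 519.7 CPM in somatostatin (493 to 548), 313 in parvalbumin (292 to 334), 57.1 in VIP (40.0 to 79.0) and 17.6 in LAMP5 neurons (9.36 to 30.1). Somatostatin exceeded VIP neurons by 9.10-fold (6.54 to 13.1).

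Prox1, which guides interneurons of the caudal eminence, ran the other way. It was at 159 CPM in VIP neurons (129 to 193; 151 and 166) and 93.3 in LAMP5 neurons (72.6 to 118), against 6.18 in parvalbumin and 5.61 in somatostatin neurons. After each nucleus was thinned to 1000 UMIs, 11% of 310 VIP nuclei had a Prox1 UMI (7.72 to 15, exact Clopper-Pearson), compared with 0.721% of 832 somatostatin nuclei (0.265 to 1.56). Without thinning the shares were 25.2% and 1.68%, at median depths of 1941.5 and 3091 UMIs, and 8 VIP nuclei and 1 somatostatin nucleus were too shallow to thin. In excitatory neurons of layer 2/3 the thinned share was 0.253%, and the Prox1 level of excitatory neurons was not above free RNA. The layer 2/3 interval (0.0691 to 0.648) overlaps that of somatostatin neurons.

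Set against each other with equal weight per subclass, parvalbumin with somatostatin neurons exceeded VIP with LAMP5 neurons at least 2-fold, in the whole and in each library, for 3 of 23 members (background 3.09%). These were Satb1 (11.1-fold), Lhx6 (9.47-fold) and Tshz3 (5.19-fold), a zinc finger homeobox factor of projection neurons. In the opposite direction 4 of 23 were called (background 2.63%): Prox1 (21.4-fold), Pbx3 (4.02-fold), Dlx1 (2.69-fold) and Tshz1 (2.53-fold). Nkx2-1, which switches on Lhx6 in the medial eminence, was left out of the count by its low UMIs. It stood at 11.3 CPM in parvalbumin neurons (7.66 to 16.0; 6.77 and 15.5) and at 1.12 in somatostatin neurons, a fold of 10.1 (3.14 to 51.4) on 31 and 3 UMIs.

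Promoter sequence was available from RefSeq (GRCm38.p6) for 27 of the 35 members, as the 250 bases upstream of each start. In these and in all 32851 promoters of the table, 4 motifs were searched on both strands: TAATTA, the core that many homeodomains bind, TGACAG of MEIS factors, CAGGTG of ZEB factors, and CCAAT. None of the 40 member promoters held TAATTA, found in 4.84% of all promoters. TGACAG was in 2.50% of member promoters and in 15.9% of all, CAGGTG in 17.5% and 17.2%, and CCAAT in 30.0% and 33.8%. The 40 windows are not independent, because some members have several and some of these overlap. Median GC content was 52.4% over all promoters, and member windows ran from 26.8% to 80.8%. Of those printed below, Dlx2 had 66.4%, Lhx6 61.6% and Nkx6-2 65.2%. Whether base composition accounts for the motif shares was not tested. Shown here are the promoters of 3 called members for which no annotated exon overlaps this window: Dlx2 (chr2:71546755-71547004, minus strand) for progenitors, Lhx6 (chr2:36105409-36105658, minus strand) for interneurons and Nkx6-2 (chr7:139582798-139583047, minus strand) for oligodendrocytes. Each runs 5′ to 3′ and ends just before the start, and capitals mark CAGGTG or CCAAT on either strand. A match is a run of letters and not a shown binding site.
Dlx2: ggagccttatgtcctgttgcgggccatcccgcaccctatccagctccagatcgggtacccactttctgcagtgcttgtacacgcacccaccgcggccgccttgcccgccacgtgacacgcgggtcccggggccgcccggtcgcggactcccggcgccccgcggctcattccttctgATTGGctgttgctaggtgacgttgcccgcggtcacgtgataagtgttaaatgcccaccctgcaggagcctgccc
Lhx6: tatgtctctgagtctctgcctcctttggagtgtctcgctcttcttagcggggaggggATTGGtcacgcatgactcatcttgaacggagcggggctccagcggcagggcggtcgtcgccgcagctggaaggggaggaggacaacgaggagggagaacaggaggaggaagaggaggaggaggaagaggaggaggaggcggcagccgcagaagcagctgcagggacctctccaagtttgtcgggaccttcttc
Nkx6-2: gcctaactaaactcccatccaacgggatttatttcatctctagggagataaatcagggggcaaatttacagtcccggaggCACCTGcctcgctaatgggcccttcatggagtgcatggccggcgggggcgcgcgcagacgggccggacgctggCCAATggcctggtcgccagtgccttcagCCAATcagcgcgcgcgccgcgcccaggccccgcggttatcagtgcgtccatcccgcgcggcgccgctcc
Dlx2 and Lhx6 hold 1 CCAAT each, and Nkx6-2 holds 2 CCAAT and 1 CAGGTG.

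Between excitatory and inhibitory neurons 18 of 34 members were called. In 13 of 34 the inhibitory level was at least 2-fold higher (background 5.74% of genes), and in 5 of 34 the excitatory level was (background 5.21%). The inhibitory group held all 4 Dlx genes, with inhibitory over excitatory folds from 10.7 for Dlx6 to 22.3 for Dlx5, together with Lhx6 (27.4-fold), Prox1 (17.9-fold), Nkx2-1 (17.0-fold), Lhx8 (9.32-fold), Isl1 (6.48-fold), Meis1 (5.71-fold), Zfhx3 (3.43-fold), Pbx3 (2.80-fold) and Satb1 (2.78-fold). Levels of the Dlx genes, Lhx6, Prox1, Nkx2-1, Lhx8 and Isl1 in excitatory neurons were not above free RNA. For genes such as Nkx2-1 and Lhx8 the low counts of excitatory neurons themselves set that estimate, so this outcome was fixed. The excitatory group was Emx2 (5.30-fold), Zfhx4 (4.39-fold), Pou3f2 (3.20-fold), Emx1 (3.09-fold) and Meis2 (2.19-fold). Emx1 and Emx2, patterning genes of the cortical wall, were low in absolute terms, at 6.60 CPM (5.79 to 7.49) and 1.79 CPM (1.38 to 2.28) in excitatory neurons, but both were above free RNA there and not in inhibitory neurons.

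A single cluster of 392 inhibitory nuclei, led by C130073E24Rik, 4930555F03Rik and Ebf1, carried several of these differences. It held 338 of the 404 Zfhx3 UMIs of inhibitory neurons, 30 of the 41 Lhx8 UMIs, 29 of the 38 Isl1 UMIs and 89 of the 120 Meis1 UMIs. Without it 11 of 32 members were called between excitatory and inhibitory neurons: 8 higher in inhibitory neurons (background 5.63%), namely the 4 Dlx genes, Lhx6, Prox1, Nkx2-1 and Satb1, and 3 higher in excitatory neurons (background 5.87%), namely Meis2, Zfhx4 and Pou3f2. Zfhx3 then turned in direction, at 8.76 CPM in inhibitory neurons against 13.3 in excitatory neurons, an inhibitory over excitatory fold of 0.661 (0.503 to 0.857). Meis1 was at 1.74-fold (1.12 to 2.65) and Pbx3 at 1.84-fold (1.68 to 2.00), both under the minimum, and Lhx8 and Isl1 had too few UMIs for a call. The excitatory over inhibitory fold of Meis2 was then 6.19 and that of Zfhx4 12.2. Emx1 was 2.92-fold higher in excitatory neurons but missed the minimum in library 2, and Emx2 had 1 UMI in the inhibitory neurons left.

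Striatal projection neurons, the GABA-releasing output cells of the striatum, carried a different set from that of inhibitory neurons. Of 30 members, 9 were at least 2-fold higher in striatal projection neurons (background 4.94%) and 8 were at least 2-fold higher in inhibitory neurons (background 8.76%). Meis2, a partner of PBX proteins that persists in lateral eminence derivatives, stood at 1363 CPM (1325 to 1400; 1408 and 1347) against 128 (121 to 136; 107 and 145). Pbx3, its binding partner, stood at 912 CPM (881 to 943; 855 and 932) against 145 (137 to 153; 130 and 157). The folds were 10.6 (9.96 to 11.3) and 6.28 (5.89 to 6.71), and library values did not overlap for either gene. Without the inhibitory cluster led by C130073E24Rik they were 30.1 (27.0 to 33.7) and 9.58 (8.83 to 10.4).

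The other members higher in striatal projection neurons were Pou3f1 (6.56-fold), Isl1 (5.75-fold), Zfhx3 (3.65-fold), Tshz1 (3.63-fold), Zfhx4 (3.60-fold), Meis1 (3.26-fold) and Zeb1 (2.24-fold). Without that inhibitory cluster the folds were 20.5 for Isl1, 18.9 for Zfhx3, 10.7 for Meis1 and 9.99 for Zfhx4. Pou3f1 in striatal projection neurons was 9.26 CPM in library 1 and 34.6 in library 2. Among the members lower there, Prox1 was at 1.60 CPM, Lhx6 at 2.67 and Satb1 at 19.2, and Dlx1, Dlx2, Tshz3 and Cux2 completed the set with Zeb2. Zeb2, a SMAD-binding repressor needed for interneuron migration and myelination, was at 54.2 CPM (47.0 to 62.2; 27.8 and 63.4) against 653 CPM (636 to 670; 683 and 629) in inhibitory neurons. That is 12.1-fold lower (10.5 to 13.9), and it was the lowest Zeb2 level of the 9 classes and not above free RNA. A class this low can set the free RNA estimate itself, so the last point adds nothing to the fold. Its paralogue Zeb1 had the opposite order, at 229 CPM (214 to 245) against 102 (95.6 to 109).

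**Figure D3:**
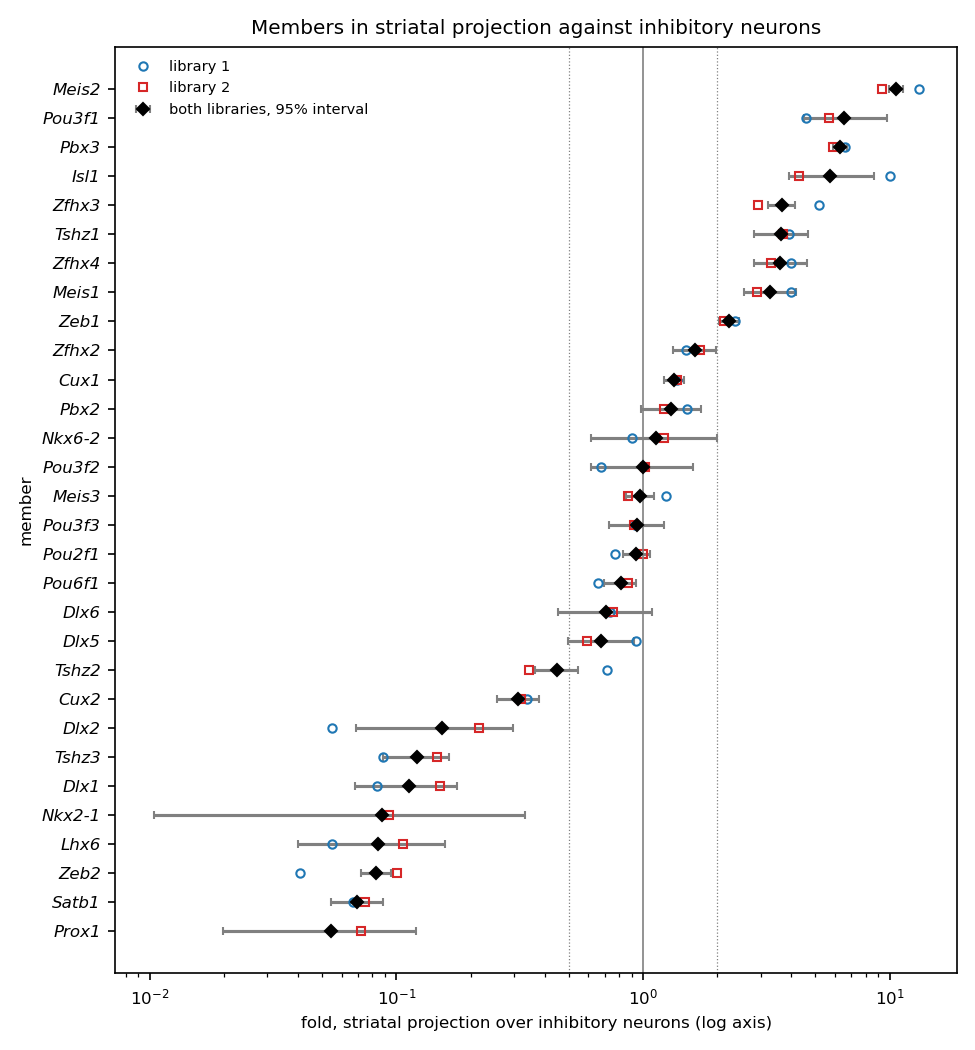
Fold of striatal projection over inhibitory neurons (x axis, log scale) for the 30 members with at least 50 UMIs in both classes together (y axis); black diamonds with lines are both libraries with the exact 95% interval, and open circles and squares are library 1 and library 2, left out where a library has 0 UMIs. Dotted lines mark 2-fold either way. Meis2 lies highest at 10.6-fold, and Prox1, Satb1, Zeb2 and Lhx6 are among the lowest.

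The direct and indirect pathways, which project to the output nuclei of the basal ganglia and to the pallidum, shared most of these levels. Meis2 was at 1330 CPM (1284 to 1377) in direct and 1492 (1423 to 1565) in indirect pathway neurons, and Pbx3 at 997 (958 to 1038) and 758 (709 to 810). Between the pathways 2 of 21 members were called higher in direct pathway neurons (background 1.06%) and 1 of 21 in indirect pathway neurons (background 0.236%). Isl1, a LIM factor of direct pathway identity, had 36.9 CPM (29.7 to 45.5; 41.2 and 35.4) in direct and 0.865 CPM on 1 UMI in indirect pathway neurons, a fold of 42.7 (7.47 to 1705). In the remaining subclasses Isl1 did not exceed 2.70 CPM.

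Tshz1, a zinc finger factor of the lateral eminence, had 54.8 CPM (45.8 to 65.0; 58.0 and 53.6) in direct and 20.8 (13.3 to 30.9; 27.8 and 18.4) in indirect pathway neurons, 2.64-fold (1.70 to 4.26). Of the other subclasses, LAMP5 neurons came highest at 21.6 CPM, layer 4/5 neurons followed at 20.3 and VIP neurons at 17.4, and the rest ran from 3.86 to 12.7. Zfhx3, a large zinc finger homeobox protein, went the other way with 121 CPM (108 to 136; 111 and 125) in direct and 256 (228 to 287; 233 and 264) in indirect pathway neurons. The indirect level was 2.11 times the direct one (1.79 to 2.49), close to the 2-fold minimum. With doublets kept, a finer clustering or the members among the clustering genes it was between 1.96-fold and 1.99-fold, under that minimum. Zfhx3 was at 36.2 CPM in layer 6 corticothalamic neurons and between 3.07 and 19.3 in the 11 subclasses left.

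The Tshz1 difference lay largely in 2 small striatal clusters. One of 149 nuclei, led by Foxp2 and Gpr149, had 187 CPM on 68 UMIs (145 to 237; 209 and 178 in the libraries), and one of 98 nuclei, led by Gpr149 and Slco5a1, had 98.1 CPM on 19 UMIs (59.1 to 153; 109 and 90.3). Without them Tshz1 was at 25.6 CPM in 603 direct and 21 CPM in 405 indirect pathway neurons, 1.22-fold (0.732 to 2.08), with the libraries at 0.748 and 1.46. Its fold of striatal projection over inhibitory neurons was then 2.01 (1.49 to 2.72), with 1.91 in library 1, and it was not called. The indirect over direct fold of Zfhx3 was 1.74 without these clusters, under the minimum, while Isl1 kept its direct pathway call, at 32.0 CPM in direct pathway neurons (24.4 to 41.2) and with no UMI in indirect pathway neurons.

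Among excitatory neurons, some members differed between layer 2/3 and layer 6 corticothalamic neurons, the only pair of layers compared by the 2-fold rule. From layer 2/3 to layer 6 corticothalamic neurons, 5 of 21 members were at least 2-fold higher in layer 2/3 (background 5.04%): Zfhx4 (36.9-fold), Cux2 (28.9-fold), Cux1 (7.30-fold), Pou3f2 (5.69-fold) and Pou3f1 (5.13-fold). Zfhx3 (4.87-fold) and Satb1 (3.72-fold), 2 of 21, were higher in layer 6 (background 3.44%). Cux2, a CUT homeobox factor that shapes dendrites of upper-layer neurons, had 269.7 CPM in layer 2/3 (258 to 281; 309 and 234), 245 in claustrum-type neurons (215 to 279; 235 and 251) and 99.4 in layer 4/5 neurons (92.3 to 107). All other excitatory subclasses were between 7.71 and 15 CPM.

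Cux1, its paralogue, had 477 CPM in claustrum-type (434 to 523) and 416 in layer 2/3 neurons (402 to 431), with 162 in layer 4/5, 128 in near-projecting and 41.2 to 79.9 in the other 4. Cux2 was also present in inhibitory neurons, at 128 CPM in parvalbumin, 126 in somatostatin and 119 in LAMP5 neurons against 39.6 in VIP neurons. Zfhx4 kept the order of Cux2, with 115 CPM in layer 2/3, 90.1 in claustrum-type, 67.5 in layer 4/5 and 25.6 in deep-layer intratelencephalic neurons, and 3.12 to 7.30 in the other 4. Pou3f1, a POU factor of subcerebral projection neurons, instead had its excitatory maximum in layer 5 extratelencephalic neurons, at 28.8 CPM (23.5 to 35; 22.8 and 35.6), 9.70-fold over layer 4/5 neurons (6.07 to 16.2). Pou3f2 was at 38.2 CPM in layer 2/3 and 30.7 in layer 4/5 neurons and at most 18.9 elsewhere among excitatory neurons.

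Tshz2 had the highest fold of the 6 members called by subclass. Layer 5/6 near-projecting neurons held 2787 CPM (2649 to 2930; 2886 in library 1 and 2709 in library 2), and layer 4/5 neurons came next with 109 (101 to 116; 122 and 96.0). This is a fold of 25.6 (23.5 to 28.0), with 23.6 and 28.2 in the 2 libraries. By cluster the step was smaller. A cluster of 262 excitatory nuclei, led by Ntng1 and Fyb2, had 578 CPM (532 to 628; 638 and 533). The subclass levels do not show these nuclei apart. The other 12 subclasses lay between 11.6 CPM in deep-layer intratelencephalic and 56.5 CPM in somatostatin neurons. Near-projecting neurons, 213 nuclei, are a deep-layer type with local axons. They were also the highest subclass for Tshz3 at 212 CPM (175 to 254), and second for Satb1 at 347 CPM (299 to 400) after somatostatin neurons. With doublets kept the clustering named no near-projecting neurons, and the highest Tshz2 level was then in layer 4/5 neurons.

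Meis2 varied among excitatory subclasses, with 512 CPM in layer 6 corticothalamic (490 to 534), 454 in layer 2/3 (439 to 469), 436 in near-projecting and 353 in layer 5 extratelencephalic neurons. It was 159 in deep-layer intratelencephalic, 112 in layer 4/5, 104 in claustrum-type and 73.8 in layer 6b neurons (61.9 to 87.5). The corticothalamic level was 6.93-fold that of layer 6b (5.82 to 8.32). Zeb1 was highest in near-projecting (204 CPM), layer 6b (179) and layer 5 extratelencephalic neurons (162), and layer 6b exceeded layer 2/3 by 3.20-fold (2.77 to 3.71). Otx1, which refines deep-layer axons, was at 5.48 CPM in near-projecting, 4.07 in corticothalamic, 2.20 in layer 6b and 1.69 in extratelencephalic neurons, on a total of 38 UMIs over all subclasses, and at or below 0.682 in the rest.

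**Figure D4:**
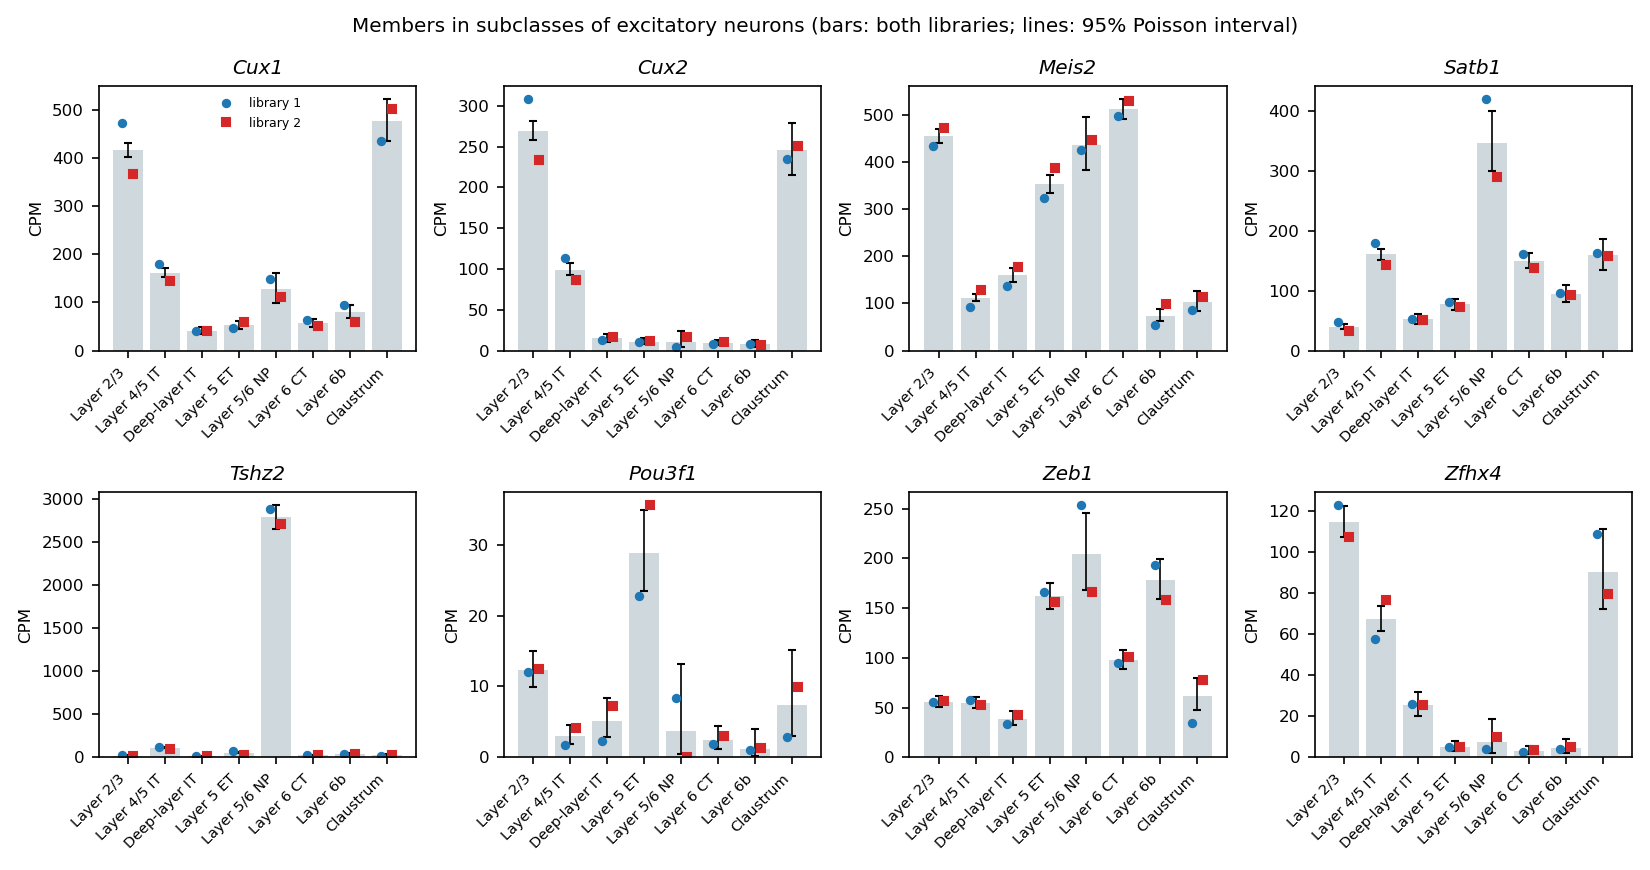
Level in CPM (y axis, linear from 0, own scale per gene) of 8 members in 8 excitatory subclasses; grey bars are both libraries together, black lines the 95% Poisson interval, circles library 1 and squares library 2. IT, ET, NP and CT stand for intratelencephalic, extratelencephalic, near-projecting and corticothalamic. Cux1, Cux2 and Zfhx4 are high in layer 2/3 and claustrum-type neurons, Pou3f1 in layer 5 ET neurons and Tshz2 in layer 5/6 NP neurons.

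Neurons and glia, each class weighted equally, gave calls for 14 of 35 members. The neuronal mean was higher for 9 (background 8.16%): Nkx2-1, Isl1, Dlx1, Dlx5, Dlx2, Meis2, Pbx3, Lhx6 and Dlx6. The glial mean was higher for 5 (background 13%): Nkx2-2 (14.7-fold), Emx2 (9.05-fold), Nkx6-2 (7.73-fold), Zfhx3 (4.13-fold) and Zeb2 (2.45-fold). With equal weights 1 class can carry such a mean. Zfhx3 was at 1149 CPM in microglia, and no other glial class reached its 166 CPM in striatal projection neurons. Emx2 was at 55.6 CPM in astrocytes and at most 7.58 in other glia. Among neurons, Nkx2-1 was at 39.2 CPM in neuroblasts and at most 6.07 elsewhere, and Dlx1 at 187 and at most 47.5. With at least 1000 genes per nucleus, which leaves too few microglia to enter the glial mean, 6 members were called, and 9 were with doublets kept. No background share is given for these counts.

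Along the oligodendrocyte lineage, from precursors through differentiating cells to mature oligodendrocytes, members with more in mature cells stood beside members with more in precursors. Nkx6-2, which helps to time myelin formation, was at 9.69 CPM in precursors (3.15 to 22.6), 40.7 in differentiating cells (17.6 to 80.2) and 176 in mature cells (161 to 192; 210 in library 1 and 141 in library 2). It was called in oligodendrocytes, 4.33-fold over differentiating cells (2.18 to 10.1), and its other classes ran from 4.45 CPM in excitatory neurons to 22.7 in astrocytes with none above free RNA. Inpp5a overlaps Nkx6-2 on the opposite strand. The precursor and differentiating levels traded places between libraries, at 24.5 and 14.3 in library 1 and 2.84 and 55.3 in library 2. Nkx2-2, which acts earlier in the lineage, was at 79.5 CPM in precursors (57.0 to 108), 127 in differentiating (82.3 to 188) and 52.6 in mature cells (44.5 to 61.7), and at 45.5 in astrocytes.

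Prox1 was called in mature oligodendrocytes, at 115 CPM (103 to 128; 123 and 107), 3.57-fold over neuroblasts and dividing cells (2.10 to 6.60). It was at 11.6 CPM in precursors and at 0 in differentiating cells, which allows up to 18.8 CPM. Neuroblasts had 32.3 CPM, inhibitory neurons 29.5, astrocytes 15.2, microglia 9.09, excitatory neurons 1.65 and striatal projection neurons 1.60. The inhibitory class averages unlike subclasses: VIP neurons alone, at 159 CPM, stood above oligodendrocytes, and LAMP5 neurons were at 93.3 CPM. As in VIP neurons, thinned shares followed the levels, with 10.4% of 761 oligodendrocytes (8.31 to 12.8) against 0.389% of 257 precursors holding a Prox1 UMI. Without thinning these shares were 9.77% and 1.63%, at median depths of 811 and 1145 UMIs, and 2300 oligodendrocytes and 112 precursors were too shallow to thin. Meis1 was at 27.1 CPM in precursors and 121 in mature cells, 4.47-fold (2.63 to 8.26; 2.47 and 7.13 in the libraries). By cluster, Meis1 was at 210 CPM in 256 mature nuclei led by 1700047M11Rik and St18. In 2805 mature nuclei led by Prr5l and Neat1 it was at 105 CPM.

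The ZEB paralogues differed in where precursors stood, highest for Zeb1 and lowest for Zeb2. Zeb1 went from 607 CPM in precursors (541 to 678; 625 and 598) through 91.6 in differentiating cells (54.3 to 145) to 20.9 in mature cells (15.9 to 26.9; 14.9 and 27.3), a 29.0-fold difference (22.0 to 38.9) between precursors and mature cells. Zeb2 was at 632 CPM in precursors (565 to 704; 606 and 644), 2479 in differentiating (2264 to 2709; 2735 and 2337) and 1971 in mature cells (1920 to 2023; 2048 and 1890). The differentiating level of Zeb2 was 3.92 times that of precursors (3.40 to 4.53), and library values of these stages did not overlap. The mature class is not uniform. Its cluster of 256 nuclei, led by 1700047M11Rik and St18, had Zeb2 at 2637 CPM (2488 to 2793; 2670 and 2590). That interval overlaps the one of differentiating cells. Tshz2 was at 155, 66.2 and 24.4 CPM in the same stages. In mature cells Zeb1 and Tshz2 were not above free RNA, an estimate that a class low for a gene can set itself. Cux2 was highest in the middle stage, at 93.0, 188 and 70.4 CPM, and Pou3f3, at 79.5 CPM in precursors and 47.0 in mature cells, had no UMI in differentiating cells.

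**Figure D5:**
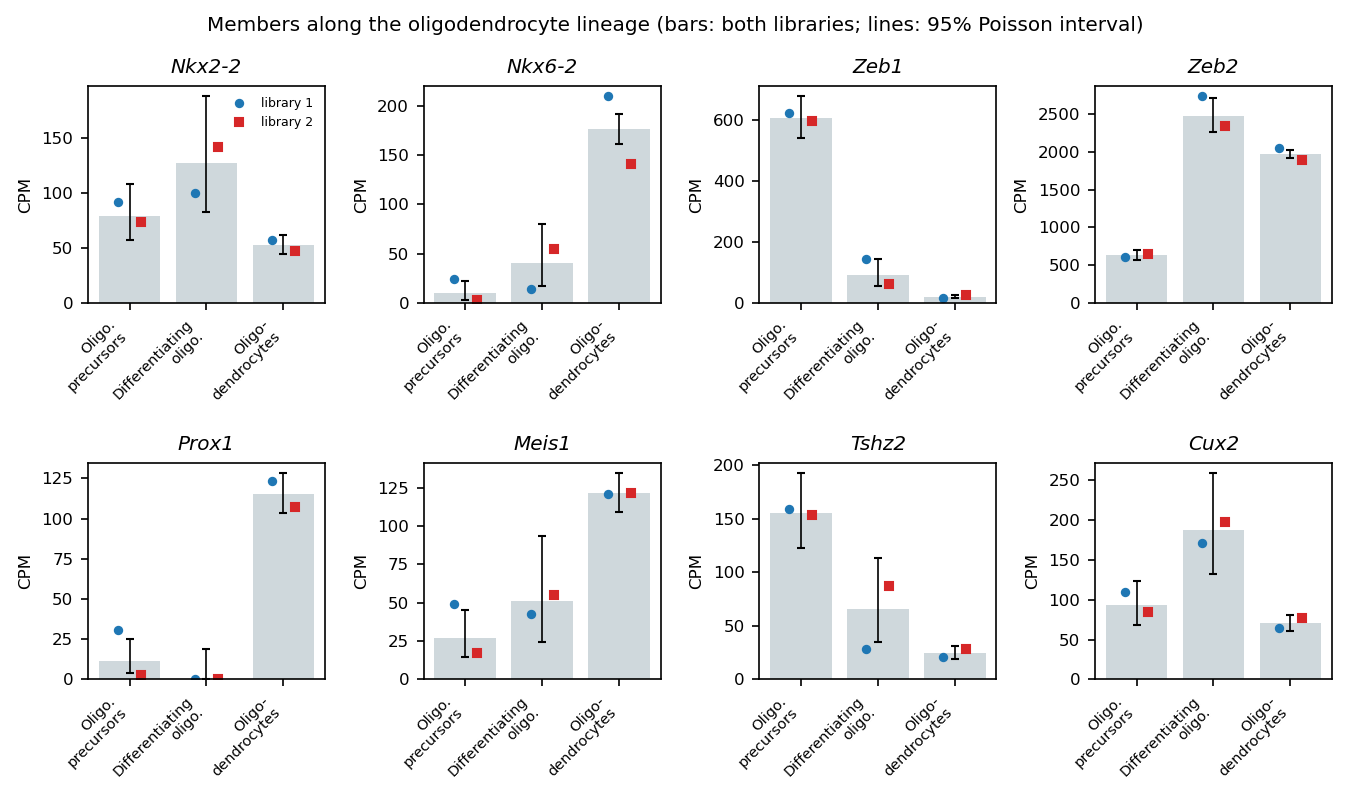
Level in CPM (y axis, linear from 0, own scale per gene) of 8 members in oligodendrocyte precursors, differentiating oligodendrocytes and oligodendrocytes; grey bars are both libraries together, black lines the 95% Poisson interval, circles library 1 and squares library 2. Nkx6-2, Prox1 and Meis1 are highest in mature cells, Zeb1 and Tshz2 in precursors, and Zeb2, Nkx2-2 and Cux2 in differentiating cells.

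In astrocytes Emx2 was called, at 55.6 CPM (34.8 to 84.2; 98.9 in library 1, which has 50 astrocytes, and 47.7 in library 2), 7.34-fold over microglia (2.71 to 24.8). It was at 0 in oligodendrocyte precursors and in differentiating oligodendrocytes, where 0 UMIs allow up to 7.15 and 18.8 CPM, and between 0.337 and 2.31 in the other 5 classes. With at least 1000 genes per nucleus Emx2 was highest in excitatory neurons. A class left with under 100 nuclei could not be highest at that minimum, and astrocytes had a median depth of 1192 UMIs. The gene Emx2os overlaps it on the opposite strand. Otx1, with 17.7 CPM (7.11 to 36.4), Pou2f1 with 283 (233 to 341), Pou3f2 with 98.5 (70.1 to 135) and Pou3f3 with 116 (85.1 to 155) also had their highest class in astrocytes, but without a 2-fold margin in each library.

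Zfhx3 was called in microglia, the resident macrophages of the brain, at 1149 CPM (1068 to 1233; 1323 and 1013), 6.92-fold over striatal projection neurons (6.21 to 7.71). Striatal projection neurons had 166 CPM, astrocytes 96.0, differentiating oligodendrocytes 50.9, oligodendrocyte precursors 50.4, inhibitory neurons 45.4, neuroblasts 39.2, oligodendrocytes 17.4 and excitatory neurons 13.3. The microglial level was above free RNA, and 54.0% of microglia held a Zfhx3 UMI despite their low median depth of 693 UMIs, compared with 1.31% of oligodendrocytes at 811 UMIs. After thinning, the shares were 52.8% of 53 microglia (38.6 to 66.7) and 1.97% of 761 oligodendrocytes, with 827 microglia left out. With at least 1000 genes per nucleus Zfhx3 was highest in striatal projection neurons.

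Calls in neuroblasts and dividing cells depended on how this class was drawn. It was 1 cluster of 334 nuclei with a median of 1014.5 UMIs, led by Igfbpl1 and Top2a, and at a finer clustering 142 of these nuclei kept the name. Those 142 held 56 of the 81 Dlx1 UMIs of the class, at 426 CPM, whereas the 192 others were at 82.8 CPM. For Lhx8 and Nkx2-1 the split was the reverse: the 142 nuclei held 0 UMIs of either gene, and all 15 Lhx8 and 17 Nkx2-1 UMIs lay in the 192 others. Lhx8 in the whole class was at 34.6 CPM (19.4 to 57.1), next to 6.06 in microglia and 4.61 in inhibitory neurons, and Nkx2-1 at 39.2 CPM (22.9 to 62.8), next to 6.07 in inhibitory neurons. In the other classes Lhx8 did not exceed 2.53 CPM and Nkx2-1 did not exceed 2.53 CPM. Meis2 and Pbx3 were high in both portions, at 2716 and 2046 CPM in the 142 nuclei and 1318 and 1126 CPM in the others. With the members among the clustering genes, or with at least 1000 genes per nucleus, Dlx1 and Dlx2 were instead highest in inhibitory neurons. A class left with under 100 nuclei in such a setting could not be highest.

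Cholinergic neurons of the basal forebrain, at 53 nuclei below the size needed for a call, had high levels of several members. Lhx8, which specifies these neurons together with Isl1, was at 227 CPM (178 to 284; 168 and 260), and Isl1 at 208 CPM (162 to 264; 235 and 193). Nkx2-1 was at 42.9 CPM (23.4 to 71.9), Pbx3 at 1660 (1523 to 1805), Tshz2 at 585 (505 to 674), under its near-projecting level, Meis3 at 370.5 (307 to 443) and Tshz3 at 306 (249 to 372). Zeb2, at 58.2 CPM, was near its level in striatal projection neurons, and Prox1, Meis1 and Pou3f1 had no UMI. When classes of 50 nuclei were admitted, 10 members were called (no background share is given), with Lhx8 6.55-fold higher in cholinergic neurons than in the next class.

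No class or subclass call was made for 22 members. Over the 9 classes Meis3 ran from 33.8 CPM in oligodendrocytes to 95 in oligodendrocyte precursors, Pbx2 from 10.2 to 40.9, Pou6f1 from 40.7 to 96.9 and Zfhx2 from 10.2 to 44.8. Cux1 ran from 107 to 285. Emx1 was at most 10.2 CPM, on 2 UMIs, in differentiating oligodendrocytes. Meis1 was highest in oligodendrocytes and, at 108 CPM, nearly as high in neuroblasts, and Tshz1 was highest in neuroblasts at 73.8 CPM, followed by differentiating oligodendrocytes at 66.2.

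Pairs of members were compared by Pearson's r of log2(CPM + 5) over 20 groups of nuclei, 6 non-neuronal or progenitor classes and 14 neuronal subclasses. The groups share libraries and differ in depth, so r is a description. Over 595 pairs the median r was 0.12. The most alike were Dlx1 and Dlx2 (0.98), Dlx5 and Dlx6 (0.92), Dlx2 and Dlx6 (0.90), Dlx1 and Dlx6 (0.88) and Lhx8 and Nkx2-1 (0.85). For Lhx8 and Nkx2-1, neuroblasts were the only group where both were high, at 34.6 and 39.2 CPM on 15 and 17 UMIs. In parvalbumin neurons Nkx2-1 was at 11.3 CPM and Lhx8 at 1.45 CPM. Cux1 and Cux2 had 0.69 and Pou3f2 and Pou3f3 0.69.

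Of 72 related factors outside the 35 genes, 63 had at least 50 UMIs and 18 were called highest in 1 class, beside the same 10.7%. Striatal projection neurons had Foxp1 (906 CPM, 4.17-fold) and Foxp2 (639 CPM, 2.61-fold), forkhead factors. Excitatory neurons had Ldb2 (336 CPM, 2.04-fold), a cofactor of LIM proteins, and inhibitory neurons had Npas1 (61.9 CPM, 2.66-fold). Neuroblasts and dividing cells had Dlx6os1 (452 CPM, 3.19-fold), the RNA antisense to Dlx6, and Sp9 (39.2 CPM, 3.88-fold). Glial calls included Ikzf1 (561 CPM, 55.5-fold) and Pou2f2 (238 CPM, 4.15-fold) in microglia, Lhx2 and Hopx (both 40.4 CPM) in astrocytes, and Zfp536 (832 CPM, 2.24-fold) in oligodendrocytes.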

How the data were processed

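Single nuclei were profiled by 10x 3′ sequencing, per the labels, and the authors deposited 1 matrix of raw UMI counts, with genes in rows and barcodes of both libraries in columns. Cell Ranger 1.3.0, Seurat 3.1.4 and the mm10 genome are listed in the submitters' processing notes, whereas per the file headers the matrix was written by software version 3.1.0. Barcode filters, strand use and intron counting are not given in the sources used here.

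Doublets were predicted per library with Scrublet in Scanpy 1.11.5. Counts were scaled to 10000 per nucleus, and 3000 variable genes without the members gave 50 components and Leiden clusters (20 neighbours, resolution 1, then 0.5). Naming thresholds and the comparisons of subclass pairs were chosen after seeing the data, and members and gene lists were chosen with earlier results of these data known. The expected free RNA of a gene scales with the Slc17a7 level of each class (in excitatory neurons, with myelin genes) and assumes 1 free RNA mixture. Its rate is the lowest that any class allows by its own upper bound. Fold intervals are exact conditional 95% intervals (SciPy 1.17.1). Named were members called by class or subclass, the others by range, and per class the 2 called related factors with most UMIs, of which 1 is not reported here. Alternatives changed the gene minimum, doublets, scaling, free RNA, clustering, fold, UMI minimum and library, and left out single clusters.

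Library 1 held 31273163 UMIs and library 2 35292937. Gene positions are from GENCODE on GRCm38, in which all 35 members were found, and 22 overlap a gene on the opposite strand. Scripts were tested on simulated counts.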

Additional observations from a re-analysis of the deposited data

Results flagged for a closer look

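Some members had high levels in clusters that entered no comparison, because these had no name or under 100 nuclei. They were picked where the lower Poisson bound was at least 2-fold the level of the highest of the 9 classes, and the difference was not tested. In the 53 cholinergic neurons these were Lhx8 at 227 CPM, Isl1 at 208 CPM, Meis3 at 370.5 CPM, Zfhx4 at 153 CPM, Tshz2 at 585 CPM (near-projecting neurons, a subclass, had 2787) and Tshz3 at 306 CPM. In 70 fibroblasts Zfhx4 reached 466 CPM (347 to 613; 260 and 563 in the 2 libraries), against 53.3 CPM in excitatory neurons, its highest class.

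Unnamed clusters held another 3. Isl1 was at 329.8 CPM (237 to 447; 332 and 326 in the 2 libraries) in 114 nuclei led by Gpr149, Stac and Fstl1, against 24.6 CPM in striatal projection neurons. Tshz1 was at 286 CPM (208 to 384; 293 and 281) in 95 nuclei led by Chst9 and Foxp2, against 73.8 CPM in neuroblasts and dividing cells. Zfhx4 was at 162 CPM (139 to 188; 208 and 126) in 288 nuclei led by Abi3bp and Ndst4, against 53.3 CPM in excitatory neurons.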

How the results depend on the processing

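No paired analysis was possible because the result comes from no test and no label ties a library to a group. The counts of called members stayed within 1.5 times the main value for most alternatives. Where a count under an alternative, here or above, has no share of all genes beside it, it shows only how many calls were made. Whether the members stand out from other genes in that setting cannot be read from it. With a 3-fold minimum, there were 6 members by class, 2 by subclass and 9 related factors. Neurons against glia gave 6 members with at least 1000 genes per nucleus and 9 with doublets kept. With classes of 50 nuclei, chosen after seeing the data, 11 related factors were called. Without the inhibitory cluster led by Ebf1 among its first genes, also chosen after seeing the data, 11 members were called between excitatory and inhibitory neurons. Without 2 small striatal clusters, chosen likewise, the subclass calls of Tshz1 (1.18-fold over the next) and Zfhx3 (1.74-fold) ended. Libraries alone gave 9 and 14 members by class, 6 and 7 by subclass, and 1.67 and 1.71 for the median fold.

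For single called members, 212 alternatives were computed; 189 kept the highest class at 2-fold or more, 6 kept it under 2-fold (Zfhx3 and Tshz1 by subclass), and 17 had another highest class. These 17 concern Dlx1, Dlx2, Lhx8 and Nkx2-1, whose neuroblast class held 334, 173, 152 or 52 nuclei by setting, Zfhx3 and Emx2 with 1000 genes per nucleus, and Tshz2 with doublets kept. Where fewer than 100 nuclei were left in a class, it could not be highest. Subtraction of free RNA was not computed for subclasses. Depth limits low members: Otx1, Lhx8, Nkx2-1 and Nkx2-2 were under 50 UMIs over the subclasses. Intervals cover counting error, PCR and capture effects aside, and with 1 library per group no spread between animals is known.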
